A study of Rattus norvegicus with 3 samples.

Results

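The interstitial and microfibrillar collagens were followed in the developing rat cochlea by single-cell RNA sequencing at postnatal days 1, 7 and 14 (P1, P7 and P14). The set was taken from a list of 10 genes, Col1a1, Col1a2, Col3a1, Col5a1, Col5a2, Col6a1, Col6a2, Col6a3, Col8a1 and Col15a1, and 9 of them had a row among the 32623 genes of the matrices. Col6a3 had no row and is not analysed here. The levels were read in 30641 of 34927 barcodes, namely those with more than 500 and fewer than 5000 genes and with under 25% of their unique molecular identifiers (UMIs, each standing for a captured transcript molecule) on mitochondrial genes.

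Every group was made of untreated Sprague-Dawley rats with no altered gene named in the labels, and the stage was the only thing that differed between the libraries by design. Rats of one age were pooled, and each stage was 1 library made with 10x Genomics Chromium 3' chemistry. The labels name greater epithelial ridge cells as the cell type, while the study describes the whole dissociated basal membrane. By marker genes most of the kept cells were connective tissue cells, and the class with epithelial markers held 301, 219 and 78 cells.

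Fibril-forming collagens are the load-bearing proteins of connective tissue. Type I and type III collagen are co-assembled into interstitial fibrils, and type V collagen, a minor fibril component, helps to start a fibril and to set its diameter. Type VI collagen forms beaded microfilaments around cells, type VIII collagen is a short-chain network collagen, and type XV collagen is a proteoglycan that lies between basement membranes and the fibrils next to them. In the cochlea such collagens belong to the spiral ligament, the spiral limbus, the cells lining the underside of the basilar membrane and the bone of the capsule.

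The 3 libraries differed in depth, and this bears on every value that follows. Kept cells had medians of 6565 UMIs at P1 (12779 cells), 6878 at P7 (12581 cells) and 1614 at P14 (5281 cells). Pairs of libraries shared 16 to 53 kept barcodes. With 1 library per stage no test of a difference between stages was possible, so the values are described by their size, and the 95% intervals cover counting error only. A level is given as UMIs of the gene per 1000000 UMIs of the same cells (CPM). A member is counted as higher or lower where the ratio of 2 levels, with 10 CPM added to each, was 2-fold or more and the level was at least 10 CPM in either group. A tag count near the 3' end of a transcript does not scale with its length, so levels are compared between groups of cells for 1 gene, and Col1a1 and Col3a1 are set against each other only as a share of their summed UMIs.

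Together the 9 members took 0.143% of all UMIs at P1, 0.204% at P7 and 0.309% at P14. In all kept cells 6 of the 9 members had their highest level at P14, and Col5a1, Col5a2 and Col6a1 had theirs at P1. How many of all genes were highest at P14 was not counted. On this scale 15.2% of all genes were higher and 5.38% lower by 2-fold or more at P14 than at P1. Against P7 the shares were 11.3% and 4.62%, so the count of 6 is not read as a trait of the members. The members did not move as a block. Col1a2, Col3a1 and Col15a1 increased at each step (Col3a1 not from P7 to P14 under the other scaling given next). Col5a1 and Col6a1 decreased at each step (Col6a1 not from P7 to P14 with the classes weighted as at P1). The other members were lowest at P7. For Col5a2 the intervals of P7 and P14 overlapped once cells with osteoblast markers were left out. With the trimmed mean of M-values (TMM) scaling in place of total UMIs, 4 members had their highest level at P14, because Col3a1 was then highest at P7 (1626 CPM against 1394 at P14) and Col6a2 at P1.

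**Figure D1:**
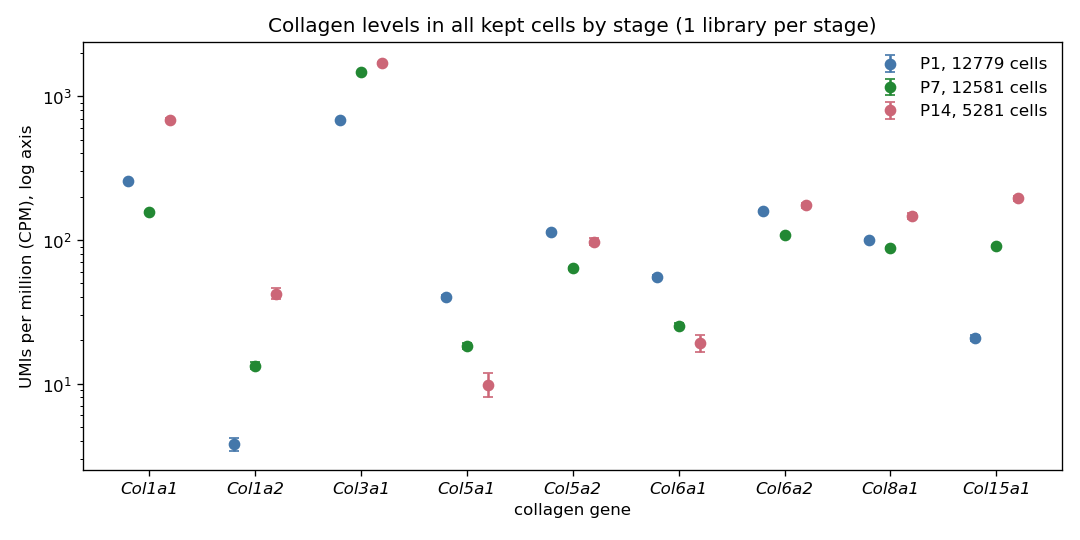
Level of each collagen gene in all kept cells (vertical log axis, CPM) at P1, P7 and P14, 1 library per stage; bars show the exact 95% Poisson interval, and where none is seen it is smaller than the point. Col1a1, Col1a2 and Col15a1 stand highest at P14, whereas Col5a1 and Col6a1 decline from P1 onward in the cells as captured.

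Col1a1 (ENSRNOG00000003897) encodes the main chain of type I collagen. Its level was 255.8 CPM at P1 (95% interval 253 to 259), 157.0 at P7 (154 to 160) and 687 at P14 (672 to 702). It thus dipped at P7 and was highest at P14, and none of the counting intervals overlapped. Col3a1 (ENSRNOG00000003357), the chain of type III collagen, was at 684 CPM at P1, 1479.9 at P7 and 1715 at P14. On the CPM scale most of its increase in the cells as captured lay between P1 and P7. This did not hold within stromal cells (685, 1812 and 3074 CPM). Col1a2 (ENSRNOG00000011292), the partner chain of type I collagen, was at 3.79, 13.3 and 42.4 CPM at the 3 stages. It was found in few molecules at P1, where 371 UMIs were counted in all cells.

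Col5a1 (ENSRNOG00000008749) and Col5a2 (ENSRNOG00000003736) encode chains of type V collagen. Col5a1 was at 40.1 CPM at P1, 18.2 at P7 and 9.79 at P14, so its level decreased at both steps. Col5a2 was at 113.1, 63.4 and 97.1 CPM, lowest at P7. Without the cells that carry 3 or more osteoblast markers it was at 112.5, 62.9 and 63.9 CPM, with overlapping intervals at P7 and P14. The type VI chains differed in the same way from each other. Col6a1 (ENSRNOG00000001249) was at 55.2, 25.3 and 19.1 CPM, and Col6a2 (ENSRNOG00000001254) at 159.9, 108.2 and 173.9 CPM. With all kept cells counted, in both types one chain was lowest at P14 and the other was lowest at P7.

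Col8a1 (ENSRNOG00000039668), a chain of type VIII collagen, changed least before P14, with 100.05 CPM at P1, 88.0 at P7 and 146.7 at P14. Col15a1 (ENSRNOG00000060381), the type XV chain, was at 20.8, 91.0 and 194.4 CPM. Its log2 ratio was 1.71 for P7 against P1 and 1.02 for P14 against P7.

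For P7 against P1 in all cells, Col3a1 (log2 1.10, or 0.85 with the immune level subtracted) and Col15a1 were the 2 members higher by 2-fold or more and none was lower, where 3.2% of the 8222 genes compared were higher and 2.02% lower. With 1 CPM added and no minimum it was 3 higher and 2 lower, Col5a1 and Col6a1, beside 2.99% and 2.74% of all genes, and with the immune level subtracted 1 higher and 2 lower, beside 11.3% and 14.0%. For P14 against P7, Col1a1 (log2 2.06), Col1a2 (1.17) and Col15a1 were higher and none was lower, where 11.3% of 9048 genes were higher and 4.62% lower. With TMM scaling the shares of all genes for this step turned to 6.48% higher and 11.9% lower, and Col1a1 was the only member past 2-fold. For P14 against P1, 4 members were higher (Col1a1, Col1a2, Col3a1 and Col15a1) and 2 lower (Col5a1 and Col6a1), beside 15.2% and 5.38% of all genes (8.99% and 12.2% with TMM scaling). Under TMM scaling Col1a1 (0.94) and Col3a1 (0.86) no longer passed 2-fold, and Col1a1 was at 0.71 without the cells that carry osteoblast markers. Stage differences in all cells also carry the mix of cell types captured. The classes of P7 and P14 were therefore also weighted as at P1. At P14 the neuron class (20 cells) and the mixed class (0 cells) gave no value. The weights of the other 7 classes were scaled up there, against 9 classes at P1 and P7. Col1a1 was then at 120.7 CPM at P7 and 1036 at P14, and the order of its stages was as before. The order turned for others, as Col5a2 was then highest at P14 (141.1 CPM) and Col6a1 was at 32.0 CPM at P14 against 27.3 at P7. With these weights the log2 ratio of Col6a1 for P14 against P1 was -0.63, within 2-fold, and that of Col1a1 for P7 against P1 was -1.02. Col6a2 was at 1.15 for P14 against P7, and Col8a1 at 1.09 for that step and 1.04 for P14 against P1. The ratios of Col6a2 and Col8a1 set 7 classes at P14 against 9, so values this close to 2-fold are not read as calls.

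Cells were grouped into broad classes from marker genes after clustering without any collagen gene, so that the members did not shape the classes. The stromal class, which joins mesenchyme, fibroblasts, fibrocytes, tympanic border cells and bone cells, held 9148 cells at P1, 7450 at P7 and 2849 at P14. All 6 fibroblast markers, Dcn, Lum, Dpt, Pdgfra, Mfap5 and Fbln1, were at 10 CPM or more in it at every stage. Different clusters made up the class at each stage. The clusters led by Isyna1, Tac1 and Cav1 held most of it at P1, those led by Dlx5 and by Aard and Ramp3 most of it at P7, and those led by Coch, Ptgds and Clec3b nearly all of it at P14. Clusters that belong almost to 1 library may be that library and not a cell type, so a stage difference within the class and a change of clusters cannot be told apart. The other classes were mural cells (pericytes and vascular smooth muscle, 328, 287 and 62 cells), endothelial cells (165, 181 and 986), glia (Schwann and satellite cells, 575, 2926 and 408), neurons, epithelium and immune cells. The clusters changed in glia too, since 395 of the 408 glia of P14 were a cluster led by Mt3 that had no cell at P1 and 5 at P7, and an unnamed cluster led by Gas7, with glial markers first and 1259 cells at P1, was not counted as glia. The P7 cells of the neuron class had 12607 CPM of Schwann and satellite markers and 1170 CPM of neuron markers, so they went against the name, and their levels are not described, although they count among the classes ranked below and among the other cells of P7.

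Over the 27 pairs of a member and a stage, the highest level among the named classes lay in mural cells in 11, in stromal cells in 10, in glia in 4 and in endothelial cells in 2. In 8 of the 27 the interval overlapped that of the next class, among them Col3a1 at P1 and P7 and Col5a1 at all 3 stages. The leading class was not counted over all genes, so these counts are not read as a trait of the collagens. The mural class of P14 held 62 cells with 89948 UMIs. Mural cells led for type VI collagen and stromal cells for Col8a1 at all 3 stages beyond counting error, stromal cells led for Col1a2 at P1 and P7, and Col15a1 was led by endothelial cells until P7.

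**Figure D2:**
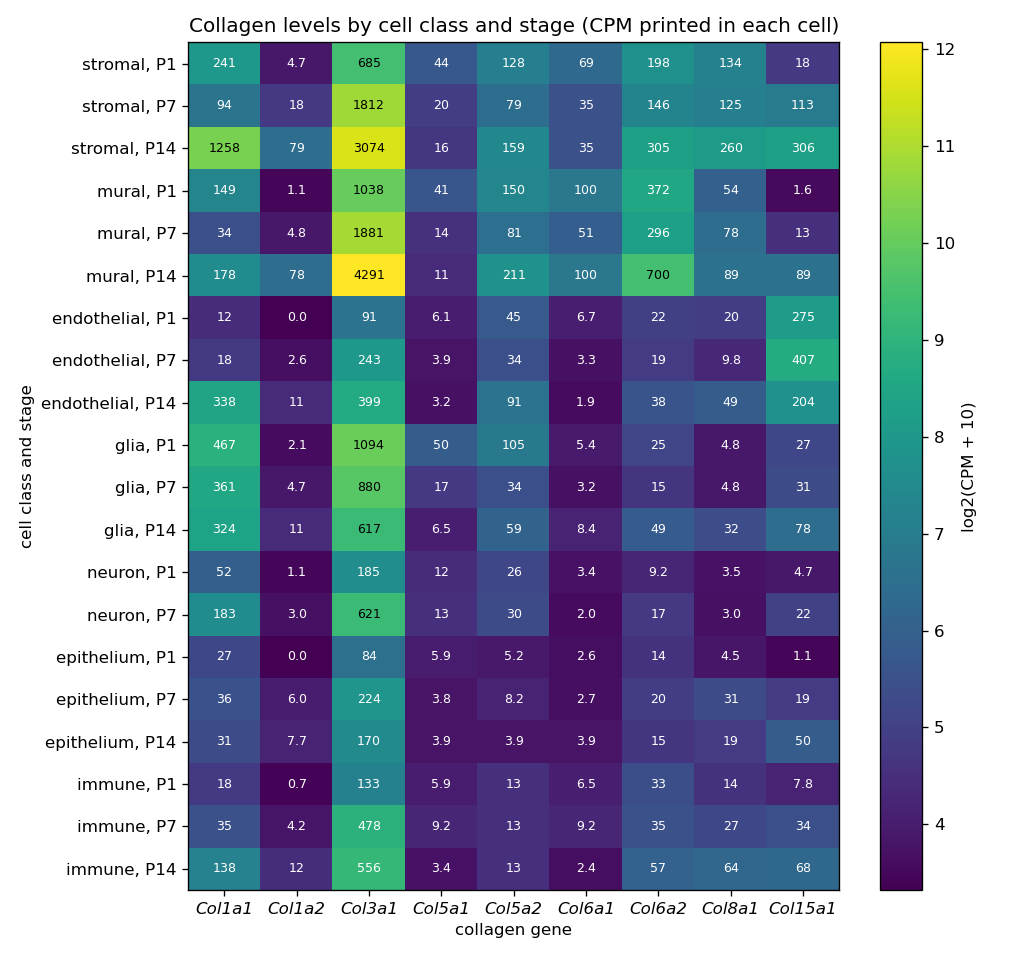
Level of each collagen gene (log2 of CPM plus 10 as colour and printed CPM) in the broad cell classes at P1, P7 and P14. Classes with under 50 cells at a stage have no row. Col6a2 reaches 700.4 CPM in P14 mural cells and Col15a1 stands out in endothelial cells at P1 and P7.

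Col1a1 was highest in glia at P1 and P7 and in stromal cells at P14. Its level in stromal cells was 241 CPM at P1, 93.5 at P7 and 1258 at P14, and in glia it was 467, 361 and 324 CPM. At P7 glia held 48.3% of all Col1a1 UMIs and the stromal class 37.2%. Col1a1 was the 1 member lower in stromal than in all other cells by 2-fold or more at P7 (log2 -1.40).

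Col3a1 was at 685, 1812 and 3074 CPM in stromal cells and at 1038, 1881 and 4291 CPM in mural cells. The level increased at both steps in both classes, and at P7 their intervals overlapped (1802 to 1823 and 1819 to 1944). In glia Col3a1 went the other way, with 1094, 880 and 617 CPM, although the P14 glia were another cluster. Of the glial clusters with cells at P1 and P7, the larger went from 1401 to 882 CPM and the dividing one, led by Ube2c, from 901 to 875. With the Gas7 cluster counted as glia the levels were 985, 860 and 619 CPM. Macrophages had 57.9 CPM of Col3a1 at P1 and 94.8 at P7 in the C1qb cluster, and B cells of P14 had 59.7. The immune cluster led by Lyz2 had 237, 861 and 928 CPM at the 3 stages, beside 851 CPM of Dcn at P7 and 2546 CPM of Coch, a fibrocyte gene, at P14. Transcripts of stromal cells were thus found in non-stromal clusters, and their part in the collagen levels there was not tested.

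Col5a1 was at 43.6, 19.8 and 16.0 CPM in stromal cells and at 50.2, 17.2 and 6.53 CPM in glia, and the intervals of these classes overlapped at all 3 stages. Col5a2 was at 128, 79.0 and 159 CPM in stromal cells and at 150, 80.8 and 211 CPM in mural cells. Without the stromal cells that carry 3 or more osteoblast markers, described below, the stromal levels were 127, 78.7 and 94.7 CPM. The stromal level of P14 was then below that of P1, not above it. With all cells counted, mural and stromal cells were apart beyond counting error at P1 only. Without the marker cells they were apart at P14 too (127 to 330 CPM in mural and 86.3 to 104 in stromal cells). In glia Col5a2 was at 105, 33.6 and 58.8 CPM, below both other classes.

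The type VI chains had their highest levels in mural cells. Col6a2 was at 372, 296 and 700.4 CPM in mural cells and at 198, 146 and 305 CPM in stromal cells, with no overlap of intervals at any stage. Col6a1 was at 99.7, 51.0 and 100.1 CPM in mural cells, and at 68.7, 35.4 and 35.4 CPM in stromal cells. The mural value of P14 rests on 62 cells and has an interval of 45.8 to 190 CPM. Glia had little of either chain, with 3.17 to 8.39 CPM of Col6a1 and 15.2 to 48.5 CPM of Col6a2.

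To show where the control region of a type VI gene lies, the 250 bases before the annotated start of Col6a1 are given from RefSeq for the assembly GRCr8 (chr20:11905440-11905689, plus strand). The motifs searched on both strands were the CCAAT box, the GC box spelled GGGCGG, the TATA box spelled TATAAA and the AP-1 motif spelled TGAGTCA, and the capitals mark the matches. The single match is TGAGTCA on the minus strand, 99 to 93 bases before the start, and 4.05% of the 33469 rat promoters of this length hold that motif. Col6a1 and Col6a2 are next to each other on the chromosome, as are Col3a1 and Col5a2.
Col6a1: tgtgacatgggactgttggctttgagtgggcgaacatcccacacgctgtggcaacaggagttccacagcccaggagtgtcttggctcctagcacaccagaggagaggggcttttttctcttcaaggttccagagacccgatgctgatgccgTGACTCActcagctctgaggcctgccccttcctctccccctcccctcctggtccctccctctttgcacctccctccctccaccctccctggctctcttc

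Col8a1 was the member with the largest share of its UMIs in stromal cells at P1 and P7, though not at P14. Its level there was 134, 125 and 260 CPM at P1, P7 and P14, against 53.8, 77.6 and 88.9 CPM in mural cells and 4.77, 4.76 and 31.7 CPM in glia. The stromal class held 94.6% of Col8a1 UMIs at P1, 89.0% at P7 and 80.0% at P14. Its promoter in GRCr8 (chr11:56246532-56246781, plus strand) is shown for comparison with Col6a1, and its capitals mark 4 matches of GGGCGG on the minus strand, a motif that 30.5% of the promoters hold.
Col8a1: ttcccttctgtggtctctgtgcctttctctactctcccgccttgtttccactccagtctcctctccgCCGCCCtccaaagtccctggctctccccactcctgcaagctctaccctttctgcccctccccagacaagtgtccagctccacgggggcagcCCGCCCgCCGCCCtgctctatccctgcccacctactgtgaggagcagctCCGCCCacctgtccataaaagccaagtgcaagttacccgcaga

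Col15a1 was high in endothelial cells from P1 and in stromal cells from P7. In endothelial cells its level was 275.5 CPM at P1 (252 to 301), 407 at P7 (375 to 440) and 204 at P14 (182 to 227), and in stromal cells it was 17.5, 113 and 306 CPM. Endothelial cells held 24.4% of its UMIs at P1 while they were 1.29% of the cells. By P14 the order had turned, with the stromal level above the endothelial one beyond counting error.

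Col1a2 was low outside the stromal class, with 4.75, 17.5 and 79.3 CPM in stromal cells and 2.08, 4.66 and 11.2 CPM in glia. Its mural level at P14 (77.8 CPM, interval 31.3 to 160) could not be told apart from the stromal one. The 250 bases before its start in GRCr8 (chr4:33518307-33518556, plus strand) are shown because Col1a2 increased at every step while Col1a1 did not. The capitals mark a CCAAT motif on the minus strand, 221 to 217 bases before the start, and TATAAA, 170 to 165 bases before it. These motifs are held by 34.0% and 12.9% of all promoters, respectively. Of the 10 listed genes 7 had a promoter entry, and Col5a2, Col6a3 and Col15a1 held none of the 4 motifs while Col5a1 held 1 GC box. Col1a1, Col3a1 and Col6a2 had no entry. A match is a description of letters, not a site or a cause.
Col1a2: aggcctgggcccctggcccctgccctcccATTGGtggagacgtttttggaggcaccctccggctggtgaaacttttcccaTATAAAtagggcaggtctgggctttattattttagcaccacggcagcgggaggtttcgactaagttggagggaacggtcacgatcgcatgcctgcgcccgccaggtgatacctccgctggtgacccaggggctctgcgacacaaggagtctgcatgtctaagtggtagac

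Against all other cells of the same stage, 3 members were higher in stromal cells at P1 (Col6a1 with log2 1.26, Col6a2 with 1.40 and Col8a1 with 2.35) and none was lower, beside 3.39% and 9.35% of 8201 genes. The same 3 members were higher at P7, beside 5.41% of genes, and Col1a1 was lower, beside 6.77%. At P14 8 of the 9 members were higher, all but Col5a1 (log2 0.82), and none lower, beside 7.55% and 11.9% of 9315 genes. When the mixed and unnamed clusters were left out of the other cells at P7, 6 members were higher and Col1a1 was lower, beside 6.78% and 8.03% of genes.

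Within the stromal class, P7 against P1 gave 2 members higher by 2-fold or more, Col3a1 (log2 1.39) and Col15a1 (2.16), and 1 lower, Col1a1 (-1.28), beside 3.49% of 7957 genes higher and 1.5% lower (2.85% and 2.25% with TMM scaling). For P14 against P7 it gave 4 members higher and none lower, namely Col1a1 (3.61), Col1a2 (1.70), Col15a1 (1.35) and Col6a2 (1.01). Of all genes 10.2% were higher and 6.72% lower in that step, or 6.67% and 11.8% with TMM scaling, under which Col6a2 was at 0.71. For P14 against P1, Col1a1, Col1a2, Col3a1 and Col15a1 were higher and Col5a1 (-1.05) lower, beside 15.2% and 7.52% of all genes (9.57% and 14.8% with TMM scaling). The 2 steps share the P7 library, so they are not independent.

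Other classes did not follow the stromal pattern throughout. For P7 against P1, no member was higher in glia and 2 were lower, Col5a1 (log2 -1.15) and Col5a2 (-1.40), beside 2.8% and 2.82% of 7666 genes. In mural cells Col15a1 was higher (1.01), and Col1a1 (-1.85) and Col5a1 (-1.08) were lower, beside 2.27% and 1.87% of genes. The Col15a1 ratio rests on 25 UMIs at P7 and 3 at P1, a ratio of 8.31 with a counting interval of 2.53 to 43.0. Fibroblast markers in mural cells were at 409 CPM at P7 against 202 at P1, and Schwann and satellite markers at 714 against 211. In endothelial cells Col3a1 was higher (1.32) and none was lower, beside 3.11% and 1.95% of genes. In epithelium Col3a1 (1.32), Col8a1 and Col15a1 (1.37) were higher and none was lower, beside 5.6% and 3.96%, from 31.3 CPM of Col8a1 at P7 against 4.46 at P1. Summed fibroblast markers in epithelium were at 780.03 CPM at P7 against 171 at P1, and otic mesenchyme markers at 1768 against 959. In endothelial cells fibrocyte markers were at 318 against 9.42 CPM and fibroblast markers at 329 against 175. Col3a1 was also higher at P7 than at P1 in immune cells (478 against 133 CPM), and the part of stromal transcripts in the Col3a1 of all these classes was not tested.

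For P14 against P7, Col6a2 (log2 1.21), Col8a1 (1.499) and Col15a1 (1.11) were higher in glia and none was lower, beside 11.9% and 9.75% of 8322 genes, a comparison of different clusters. Mural cells had 6 members higher and none lower, namely Col1a1 (2.09), Col1a2 (2.57), Col3a1 (1.19), Col5a2 (1.29), Col6a2 (1.21) and Col15a1 (2.09), beside 21.1% and 14.0% of genes in a class of 62 cells. In these mural cells the summed markers of other classes were also higher at P14 than at P7, with 4747 against 75.4 CPM of fibrocyte markers, 1712 against 409 CPM of fibroblast markers and 3624 against 714 CPM of Schwann and satellite cell markers, and their part in the collagen levels was not tested. In endothelial cells Col1a1 (3.62), Col5a2 (1.201) and Col8a1 (1.59) were higher and none was lower, beside 16.5% and 4.67%. Fibroblast markers in endothelial cells were at 924 CPM at P14 against 329 at P7, and fibrocyte markers at 1766 against 318. Of the endothelial cells of P14, 16 carried 3 or more osteoblast markers and held 77.8% of the Col1a1 UMIs of the class, and without them Col1a1 was at 77.8 CPM in place of 338, against 18.3 at P7. With such cells left out at both stages the log2 ratio was 1.61 for Col1a1, 1.53 for Col8a1 and 0.90 for Col5a2, the last within 2-fold. In epithelium Col15a1 (1.07) was higher and none was lower, beside 9.4% and 14.6%.

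Shares of cells with a UMI, taken after each cell was thinned to 1000 UMIs, followed the same course in stromal cells for Col3a1, where each interval lay above the one before. Cells under that depth were left out, 17, 39 and 218 in the stromal class and 1, 2 and 89 in the immune class. Col3a1 was found in 33.5%, 53.8% and 76.8% of thinned stromal cells at P1, P7 and P14 (64.6%, 80.4% and 85.5% unthinned), and Col1a1 in 5.74%, 4.01% and 26.9%. In immune cells the shares were 9.47%, 20.3% and 20.5% for Col3a1 (26.2%, 51.4% and 30.2% unthinned) and 0.526%, 4.52% and 8.17% for Col1a1. At P7 the stromal share of Col1a1 was not above that of immune cells while its level was (93.5 against 34.6 CPM), so no order is read from the share. Unthinned, Col1a1 was found in 11.99%, 12.7% and 32.2% of stromal cells, at median depths of 6709.5, 7365.5 and 1580 UMIs, and in 7.33%, 12.3% and 13.8% of immune cells, at 7333, 7060 and 2555.5 UMIs. In glia Col1a1 was found in 34.6%, 28.8% and 21.6% of thinned cells (69.7%, 67.5% and 36.8% unthinned), a larger share than in the stromal class at P1 and P7. At P1 82.3% of all Col1a1 UMIs lay in the richest 5% of cells, against 34.9% of the Col3a1 UMIs.

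The balance of type I to type III collagen was read as the Col1a1 share of the summed Col1a1 and Col3a1 UMIs. In all cells it was 27.2% at P1 (26.9 to 27.5), 9.59% at P7 (9.44 to 9.74) and 28.6% at P14 (28.1 to 29.1). In stromal cells it was 26.0%, 4.91% and 29.0%. The stromal cells of P7 thus stood apart from both other stages, through less Col1a1 and more Col3a1 than at P1. On the log2 scale the ratio of Col1a1 to Col3a1 was higher by 2.99 at P14 than at P7.

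Other classes had their own balance. Glia had 29.9% at P1, 29.1% at P7 and 34.4% (31.5 to 37.4) at P14, where they were almost all another cluster. Mural cells had 12.5%, 1.78% and 3.98%. In endothelial cells the share was 11.3%, 7.00% and 45.8%, and in immune cells it was 12.1%, 6.75% and 19.8%. The P14 endothelial cells also held 862 CPM of Bglap, the bone matrix protein osteocalcin, and 1230 CPM of Coch, and without their 16 cells of 3 or more osteoblast markers the share was 16.5%.

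**Figure D3:**
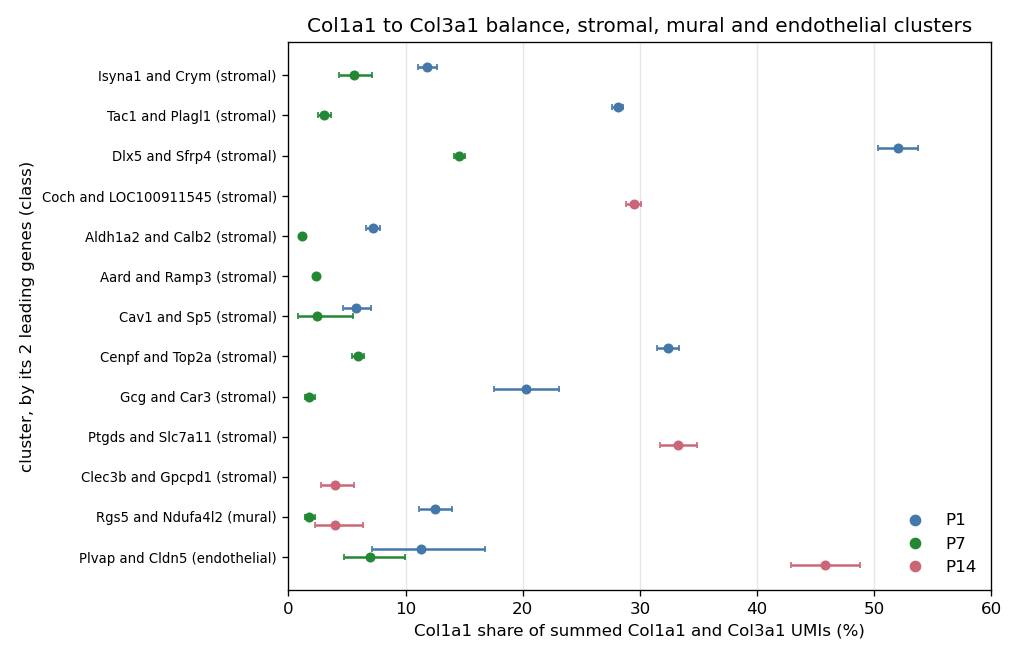
Col1a1 share of summed Col1a1 and Col3a1 UMIs (horizontal axis, percent) in each stromal, mural and endothelial cluster of 50 or more cells per stage, with exact 95% binomial intervals; clusters are named by their leading genes. Stromal clusters present at both P1 and P7 lie further left at P7, such as the Tac1 cluster with 28.1% and 3.03%.

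The shift between P1 and P7 was seen inside clusters that both stages shared. In the Tac1 cluster the Col1a1 share was 28.1% at P1 (2248 cells) and 3.03% at P7 (340 cells). In the Dlx5 cluster it was 52.0% (160 cells) and 14.6% (2163 cells), and in the Aldh1a2 cluster, which carries tympanic border markers, 7.22% and 1.15%. The dividing stromal cluster led by Cenpf and Top2a had 32.4% and 5.93%, and the Gcg and Car3 cluster 20.2% and 1.77%. The Isyna1 cluster was 11.9% and 5.61%, and the Cav1 cluster was 5.79% and 2.42%, with overlapping intervals in the Cav1 cluster only. All 7 stromal clusters with 50 or more cells at both stages had a lower share at P7. Col1a1 itself was low there, at 4.25, 8.55, 11.2 and 15.0 CPM in the Cav1, Gcg, Isyna1 and Aldh1a2 clusters. It was at 44.8, 107 and 190 CPM in the Tac1, Cenpf and Dlx5 clusters. Immune clusters of P7 led by C1qb and Lyz2 had 14.6 and 53.6 CPM. The share was also lower at P7 in endothelial and immune cells, with overlapping intervals. The part of transcripts from other cells was not tested.

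At P14 the clusters fell apart again. The Coch cluster had 29.5%, or 16.9% without its 147 cells that carry 3 or more osteoblast markers, and the Ptgds cluster 33.3%, while the Clec3b cluster, whose best list was tympanic border, had 3.99%. The Aard and Ramp3 cluster of P7 had 2.35% and alone held 43.5% of the Col3a1 UMIs of that stage, at 5126 CPM.

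Single cells with at least 20 UMIs of both genes together were not spread evenly around these means. Of 737 such stromal cells at P1, 302 had no Col1a1 UMI and 222 had a Col1a1 share over 50%. At P7 1472 of 1935 had none and 60 had a share over 50%, and at P14 67 of 211 had none and 44 had a share over 50%. In glia the cells lay around 1 value, with a median of 33.3% over 131 cells at P1 and 29.2% over 241 cells at P7, and 2 and 11 cells without Col1a1. The stromal class thus held Col3a1-only and Col1a1-rich cells side by side, and glia held mixed cells. Cells that reach 20 UMIs are the collagen-rich ones, and at P14 their number was also limited by depth.

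**Figure D4:**
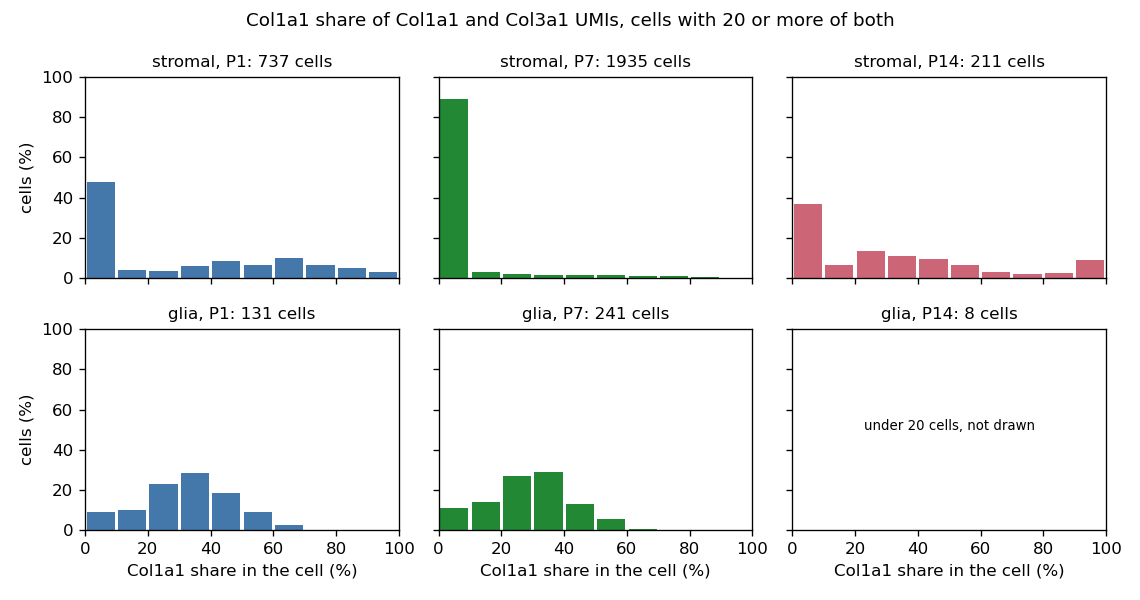
Col1a1 share of Col1a1 and Col3a1 UMIs in single cells with 20 or more UMIs of both genes (horizontal axis, percent; vertical axis, percent of such cells in bins of 10 points), for stromal cells and glia by stage. Stromal cells pile up in the lowest bin, most so at P7, with a second spread above 50% at P1, while glia of P1 and P7 centre on medians of 33.3% and 29.2%.

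At P14 a small group of cells with bone markers held a large share of the stromal Col1a1. Of 7 osteoblast markers, among them Bglap, Ibsp, Sp7 and Alpl, 3 or more were found in 149 of 2849 stromal cells at P14, 147 of them in the Coch cluster, a cut chosen after the values were seen, with 85 of these cells at exactly 3 and 251 further cells at 2. These cells were 5.23% of the class and 7.48% of its UMIs, and they held 44.5% of its Col1a1 UMIs and 44.7% of its Col5a2 UMIs but 4.27% of its Col3a1 UMIs. Col1a1 was at 7484 CPM in them (7216 to 7759) and at 755 in the other stromal cells (731 to 780). Col5a2 was at 949 and 94.7 CPM, and Col1a2 at 130 and 75.2 CPM. Col3a1 (1755 and 3181 CPM) and Col15a1 (86.5 and 323 CPM) were lower in the marker cells, and Col6a2 (289.9 and 306 CPM) had overlapping intervals. The Col1a1 share of both genes was 81.0% in them and 19.2% in the other stromal cells. The marker cells contained 32914 CPM of Bglap against 236 elsewhere and 666 CPM of Alpl, the alkaline phosphatase of bone, against 8.43.

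**Figure D5:**
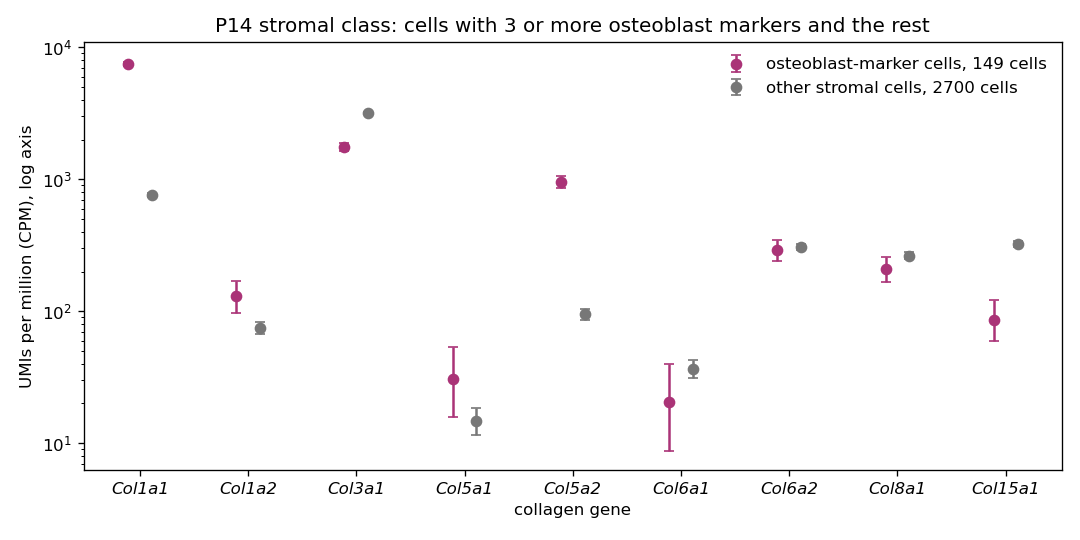
Level of each collagen gene (vertical log axis, CPM) in P14 stromal cells with 3 or more osteoblast markers (149 cells) and in the other stromal cells (2700 cells), with exact 95% Poisson intervals. Col1a1 and Col5a2 are higher in the marker cells, and Col3a1 and Col15a1 are lower.

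The same cut gave 21 stromal cells at P1 and 145 at P7, in which Bglap was at 0 and 2.69 CPM. Their Col1a1 share was 63.7% at P1 against 25.3% in the other stromal cells, and 19.5% at P7 against 4.57%. Leaving the marker cells out at all stages lowered the P14 Col1a1 level of the stromal class from 1258 to 755 CPM, and the difference of its balance between P14 and P7 from 2.99 to 2.31 on the log2 scale.

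Chains that assemble with each other did not keep a fixed ratio of UMIs. Ratios of tag counts are not molar ratios and are compared between groups only. In stromal cells there were 50.8 Col1a1 UMIs per Col1a2 UMI at P1 (45.5 to 56.8), 5.34 at P7 (4.99 to 5.71) and 15.9 at P14 (14.4 to 17.6). In glia the ratio was 225, 77.6 and 28.9, above the stromal ratio at every stage, with overlapping intervals at P14 only where its interval was 16.3 to 56.5. For type V collagen the stromal ratio of Col5a1 to Col5a2 was 0.341, 0.250 and 0.101. For type VI collagen the stromal ratio of Col6a1 to Col6a2 was 0.347, 0.242 and 0.116. Both ratios thus fell stage by stage beyond counting error. Without the osteoblast-marker cells the P14 ratio was 10.04 for Col1a1 to Col1a2 and 0.156 for Col5a1 to Col5a2.

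Stromal clusters differed in their set of collagens. At P1 the Dlx5 cluster had the highest Col8a1 (617 CPM, 572 to 664) and the highest stromal Col1a1 (1517 CPM), and the Tac1 cluster the highest stromal Col6a1 (149.5 CPM) and 322 CPM of Col8a1. The Cav1 cluster was low in all of these, with 7.34 CPM of Col1a1, 19.5 of Col6a1 and 11.4 of Col8a1. At P7 the Aard and Ramp3 cluster led for Col3a1 (5126 CPM), Col5a2 (135), Col6a1 (77.0) and Col15a1 (419). Its Col15a1 interval overlapped that of endothelial cells (407 CPM), and it held 57.9% of the Col15a1 UMIs of P7. At P14 the Coch cluster led the stromal clusters for Col3a1 (4048 CPM), Col8a1 (394) and Col15a1 (418), and the Ptgds cluster for Col6a1 (63.6) and Col6a2 (385), although it had 34.5 CPM of Col15a1. For Col1a1 the Coch cluster had 1691 CPM and the Ptgds cluster 978, and without the osteoblast-marker cells the Coch cluster had 886, below the Ptgds cluster. The Coch cluster held 68.3% of the Col1a1 UMIs of P14, and 53.9% of its Col1a1 UMIs lay in those 147 marker cells.

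Detection in the same cells was read for 5 members, each with Col3a1 only. Among thinned stromal cells with a Col15a1 UMI at P7, 94.8% also had a Col3a1 UMI, against 49.9% of those without Col15a1. For Col1a1 the corresponding shares were 83.2% and 52.5% at P7 and 74.2% and 31.1% at P1. At P14 the gaps were narrower, with 84.2% and 74.0% for Col1a1, 82.0% and 76.2% for Col5a2, and 77.8% and 76.6% for Col8a1.

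Hydroxylases, chaperones, propeptide cleavage and cross-linking take part in the making of collagen fibrils. In stromal cells 4 lists were read, on collagen biosynthesis, collagen receptors and turnover, fibril companions and partner chains. Of 19 measured biosynthesis genes, 2 were higher and 0 lower by 2-fold or more for P7 against P1 (median log2 0.53, all genes 0.11), and 2 were higher and 7 lower for P14 against P7 (median -0.41, all genes 0.05). Over all genes of the stromal class the shares were 3.49% higher and 1.5% lower in the first step and 10.2% higher and 6.72% lower in the second (6.67% and 11.8% with TMM scaling). The 2 higher at P7 were P3h3, a prolyl hydroxylase family member (272 against 48.6 CPM), and Plod1, a lysyl hydroxylase (149 against 63.8). Those lower at P14 were P3h4, Ppib, Serpinh1, P3h3, Fkbp10, P3h1 and P4hb, which act on procollagen in the endoplasmic reticulum. Serpinh1, the collagen chaperone HSP47, was at 984 CPM at P7 and 395 at P14. The 2 higher at P14 were Lox, which cross-links fibrils (541 against 94.9 CPM), and Plod2 (162 against 50.9 CPM), the latter at log2 0.95 without the osteoblast-marker cells.

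Of 15 measured fibril companions, 2 were higher for P7 against P1, Dcn (2372 against 670 CPM), a proteoglycan that coats fibrils, and Sparc (3710 against 1603 CPM), a collagen-binding matrix protein. For P14 against P7, 4 were higher (Lum at 1550 against 205 CPM, Mfap5, Prelp and Dcn) and 4 lower (Fbn2 at 20.2 against 146 CPM, Col14a1 at 22.6 against 119.6 CPM, Bgn and Emilin1). The median of this list was 0.36 and -0.26 in the 2 steps, and its counts and those that follow stand beside the shares of all genes just given. Of collagen receptors and turnover genes, 0 of 9 passed 2-fold at P7, where Itgb1 had the smallest ratio (232 against 336 CPM), and 2 of 10 were higher at P14, Itga10 (62.6 against 11.3 CPM) and Mmp13, a collagenase (28.0 against 0.086 CPM). For Mmp13 86 of 147 UMIs lay in 2 cells, and without the osteoblast-marker cells it was at 7.19 CPM, under the minimum for a call. Of the 3 partner chains measured, 0 passed 2-fold at P7 and 1 was higher at P14, Col18a1, which is related to Col15a1 (244 against 55.9 CPM). Col5a3, another type V chain, was lower in stromal than in other cells at each stage, with 6.28 against 294 CPM at P1.

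Across 48 profiles of a cluster at a stage, the member pair with the most similar pattern was Col6a1 and Col6a2 (Spearman rho 0.92), followed by Col6a2 and Col8a1 (0.77). Col5a1 and Col5a2 had a rho of 0.72, Col1a1 and Col3a1 0.63 and Col1a1 and Col1a2 0.46. Among 7750 genes the nearest pattern was that of Lamc1 for Col1a1 (0.74), Dcn for Col1a2 (0.83), Nid1 for Col3a1 (0.85), Olfml3 for Col5a1 (0.79) and Il6st for Col5a2 (0.82). For the other members it was Pcdh18 for Col6a1 (0.89), Hic1 for Col6a2 (0.92), Foxd1 for Col8a1 (0.92) and Gprc5b for Col15a1 (0.73). The profiles share libraries, depth and cell types, so these values describe likeness and were not tested.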

How the data were processed

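Single-cell suspensions of cochlear tissue were sequenced at P1, P7 and P14, with 1 library of pooled rats per stage. Reads were mapped by the authors with Cell Ranger (3.1.0 in the file headers) against rn6. What they deposited are raw UMI counts, whole numbers that were not normalized. The members, gene lists and marker lists were chosen with earlier results of these data known. Cells were kept by the limits given above, and UMIs in kept cells numbered 98005495 at P1, 93080129 at P7 and 11641065 at P14. Clustering used 2000 variable genes with all collagens left out, run in Seurat 5.3.0 under R 4.3.3, 10 principal components, resolution 0.8 and seed 0. A cluster entered a class by its best marker list, with at least 3 markers found, by a scoring rule set after the data were seen, and other clusters stayed unnamed. One cluster with 86.7% of its cells marked by Scrublet was set aside as mixed. Scrublet marked 4.87% of cells at P1 and 6.16% at P7. It marked 0.0379% at P14, where it had not worked, so no cell was removed. Levels were summed UMIs in CPM with exact Poisson intervals, shares had exact Clopper-Pearson intervals, and ratios used 10 CPM added. Levels per class were given for 50 or more cells. Genes named beyond the members are the 3 with the largest and the 3 with the smallest ratio of the 3 lists on biosynthesis, receptors and companions in stromal cells, the partner chains and the nearest pattern of each member; other list genes past 2-fold were named after their values were seen. Not all list markers are named, and some clusters are not reported here. TMM factors from edgeR 4.0.16 served as an alternative scaling only. No test was run between stages or classes. The ratio step was checked on simulated counts. Python 3.11.15 was used with numpy 2.4.6, scipy 1.17.1, pandas 2.3.3 and scanpy 1.11.5.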

Additional observations from a re-analysis of the deposited data

Results flagged for a closer look

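The stromal class was set against glia, endothelial, mural and epithelial cells for P7 against P1 and for P14 against P7. In 4 instances a member moved in opposite directions in the stromal and the other class. The counting intervals of both ratios were then apart from no change, and one of the ratios was past 2-fold. P14 against P1 was left out of this count. There Col3a1 (stromal 2.15, glia -0.82), Col1a1 (stromal 2.34, glia -0.52) and Col15a1 (stromal 3.52, endothelial -0.42) also had ratios of opposite sign. Other pairs of classes were not compared in this way. With 1 library per stage none of these differences was tested. For P7 against P1, the log2 ratio of Col3a1 was lower in glia than in stromal cells by -1.70 (stromal 1.39, glia -0.31), and that of Col8a1 was higher in epithelium than in stromal cells by 1.61 (epithelium 1.52, stromal -0.09). For P14 against P7, the log2 ratio of Col1a1 in glia minus that in stromal cells was -3.77 (glia -0.15, stromal 3.61), and that of Col15a1 in endothelial minus that in stromal cells was -2.32 (endothelial -0.96, stromal 1.35). The glia of P14 were almost all from a cluster that had 5 cells at P7. The Col8a1 level behind the epithelial ratio was 4.46 CPM at P1 and 31.3 at P7, from 12 and 57 UMIs, with a UMI in 6.39% of 219 cells at P7 and in 4 of 192 thinned ones. Fibroblast markers in epithelium were at 171 CPM at P1 and 780.03 at P7.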

How the results depend on the processing

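No paired analysis was possible because each stage is 1 library and no group has replicates. No change past 2-fold changed direction under the alternatives run. With TMM scaling in all cells, Col3a1 for P14 against P7 turned from higher to lower (1394 against 1626 CPM). So did Col6a2 for P14 against P1, and both were within 2-fold. With classes weighted as at P1, Col6a1 for P14 against P7 and Col5a2 for P14 against P1 turned from lower to higher. Those weights covered 7 classes at P14 and 9 at the other stages. Without the osteoblast-marker cells, stromal Col5a2 for P14 against P1 turned from higher (159 against 128 CPM) to lower (94.7 against 127 CPM). Among alternative values of the main results 101 stayed close to the reported value and 17 moved. The log2 difference of the Col1a1 to Col3a1 balance between P14 and P7 in stromal cells (2.99) was 2.60 with the mean CPM per cell, 3.33 with the immune level subtracted, 3.23 with each cell classed by its own markers and 2.31 without the osteoblast-marker cells. With 1 CPM added and no minimum, the members past 2-fold were 5 (3 higher, 2 lower) in place of 2 for P7 against P1 in all cells, 5 (3 higher, 2 lower, beside 3.38% and 1.83% of genes) in place of 3 in stromal cells and 7 (6 higher, 1 lower, beside 3.4% and 4.36%) in place of 4 for stromal against other cells at P7. In stromal cells for P7 against P1 it also gave 1 in place of 0 partner chains, 5 in place of 2 biosynthesis genes and 4 in place of 0 receptor and turnover genes. Leaving mixed and unnamed clusters out of the other cells gave 7 in place of 4 members at P7. With TMM scaling the count for P14 against P7 in all cells was 1 in place of 3, with Col1a2 at 0.85 and Col15a1 at 0.61, and the median of all genes moved from 0.13 to -0.23. For P14 against P1 in all cells it gave 0.94 for Col1a1 and 0.86 for Col3a1. The log2 ratio of Col1a1 to Col1a2 in P14 stromal cells was 3.64 in place of 3.99 with the mean CPM per cell and 3.33 without the osteoblast-marker cells, where that of P7 was 2.31 in place of 2.42 and that of Col5a1 to Col5a2 at P14 was -2.68 in place of -3.31. Without the osteoblast-marker cells 1 in place of 2 receptor and turnover genes passed 2-fold for P14 against P7 in stromal cells, Col1a1 was at log2 0.71 for P14 against P1 in all cells, and with the immune level subtracted Col3a1 was at 0.85 for P7 against P1. The count of members highest at P14 was 4 to 7 of 9 and that of pairs highest in stromal cells 9 to 12 of 27 over the alternatives. Neither count was made over all genes. Class values could not be given for all deposited barcodes, since these were not clustered. The depth of P14 limits what its small classes can show, with 62 mural cells and 8 glia of 20 or more UMIs of Col1a1 and Col3a1. The TMM scaling of stage levels, the immune level subtracted from stage counts, and the settings on osteoblast-marker cells, dividing, unnamed and haemoglobin clusters were chosen after seeing the data. The cause of each difference was not tested.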

Other observations

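The highest Col1a1 and Col3a1 levels of P1 lay outside the named classes. A cluster led by haemoglobin genes held 81 P1 cells with under 5% of their UMIs on haemoglobin genes, and these had 8091 CPM of Col1a1, 8617 of Col3a1, 676 of Col5a2, 682 of Col6a1 and 1518 of Col6a2, with a Col1a1 share of 48.4%. They also had 3719 CPM of Dcn and 5316 of Mgp, both matrix genes of fibroblasts. The 186 P7 cells under the same limit were unlike them, with 175 CPM of Col1a1, 1635 of Col3a1, 2160 of Dcn and 740 of Mgp, at a median depth of 1128.5 UMIs against 4370, and the 29 cells with more haemoglobin had 33.5 and 414 CPM. Counting the low-haemoglobin cells as stromal moved the P1 Col1a1 level of that class from 241 to 279.8 CPM.

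In the Tac1 cluster of P1, cells with 20 or more UMIs of Col1a1 and Col3a1 were compared by which of these genes they held, a split made after the values were seen and defined by Col1a1 itself. The gene with the largest ratio was Alpl, one of the osteoblast markers, at 112 CPM in the 147 cells with a Col1a1 share over 50% and 0.645 in the 168 cells without Col1a1. The former also had 95.8 CPM of Tnmd, a tendon and ligament gene, 87.4 of Fmod and 344 of Col12a1, both of which bind fibrils, and 588 of Col8a1. The latter had 0, 5.80, 48.4 and 183 CPM of these, and more Col15a1 (85.1 against 1.68 CPM), Clec3b (150.2 against 10.1) and Apod (2197 against 279). The median depth was 6762 and 8214 UMIs, and the other 133 cells of the 448 lay between. In the Coch cluster of P14 the 42 Col1a1-rich cells had 73242 CPM of Bglap and 20.6 of Col15a1, against 93.4 and 977 in the 67 cells without Col1a1. In the Coch cluster 823 of 3768 genes were lower in the rich cells and 373 higher, at median depths of 2809 and 1646 UMIs. The same split in the Dlx5 cluster of P7 gave 49 rich cells with 0 CPM of Col15a1 and 149 cells without Col1a1 with 36.6, and neither Alpl nor Tnmd was among its 12 largest ratios. By the split the cells without Col1a1 hold 20 or more UMIs of Col3a1, with which Col15a1 was often found.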
